A study of Caenorhabditis elegans with 2 samples.

Results

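The genes described here are 47 Caenorhabditis elegans genes that build and maintain the sensory cilium, out of 19973 protein-coding genes annotated on the 6 nuclear chromosomes. The list is one of gene names, with no threshold on a binding value, and falls into 9 groups by role: 5 intraflagellar transport complex A (IFT-A) genes, 14 IFT-B genes, 2 genes of the IFT dynein, 6 BBSome genes, 8 genes of the MKS module and 2 of the NPHP module of the transition zone, 2 ciliary kinases, 2 ARL-type small GTPases, and 6 genes with other roles. Binding of FKH-2, a transcription factor of the forkhead family, was measured by chromatin immunoprecipitation and sequencing (ChIP-seq) in whole L3 larvae. The material was strain OP185, which carries unc-119(ed3) on linkage group III and the integrated transgene wgIs185, as a mixed-sex population of pooled animals of unstated age within that stage. The target was eGFP-fkh-2, FKH-2 fused to a green fluorescent protein, and the antibody is labelled fkh-2. There were 2 biological replicates of this 1 group, so no condition was compared with another, and a control library was not analysed here. The values are the authors' peak lists on genome build ce11: 30000 peaks for both replicates pooled, 30000 for replicate 1, 24744 for replicate 2, and 203 peaks kept by an irreproducible discovery rate (IDR) threshold. Each peak carries a score from the authors' peak caller, whose scale is not given, so peaks are ranked by score within a list, with rank 1 the strongest. The pooled list reaches far into weak signal, since it ends at a q-value of 0.541 and 7297 of its peaks have a q-value under 0.05. The replicate 1 list ends at 0.356, with 16097 peaks under 0.05, and the replicate 2 list at 0.0502, with 24716. The same rank in the 2 replicate lists is therefore not the same level of evidence. The depth is unknown, because the lists give no read numbers.

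Cilia of C. elegans stand at the dendrite tips of sensory neurons, where chemicals, touch and temperature are sensed. IFT trains carry cargo along the microtubules of the cilium, with kinesins moving IFT-B and IFT-A outward and the IFT dynein moving them back. The BBSome rides on these trains and links membrane cargo to them, while the transition zone at the cilium base, built from the MKS and NPHP modules, gates what enters. Many of these genes are switched on by DAF-19, an RFX-family factor that binds a short palindrome close upstream of the gene, the X-box. FKH-2 is known for a narrower part, in shaping the cilium of the AWB olfactory neuron.

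The X-box gave a landmark for the promoters of the 47 genes. A search for the 14-base consensus with at most 2 mismatches in its 12 fixed bases, within 250 bases upstream of a transcript start and on the sequence of the same build (RefSeq, WBcel235), found 27 matches at 24 of the 47 genes (51.1%, Wilson 95% interval 37.2 to 64.7). Among the other 19926 protein-coding genes 1.28% had such a match, which lies far below that interval. The palindrome reads alike on both strands, so 1 strand was searched. A match is a description of the letters and not of a bound site. Likewise, a gene with no match can still hold an X-box with more mismatches or outside the bases searched. With at most 3 mismatches, 33 of the 47 genes had a match, a share not counted for other genes. Matches were found at 9 of 14 IFT-B, 4 of 6 BBSome and 3 of 5 IFT-A genes and at both kinase genes (2 of 2), at 2 of 8 genes of the MKS module, and at 0 of the 2 IFT dynein genes. Their centres lay 13.5 to 192.5 bp upstream, with a median of 58.5 bp, and 2 matches had 0 mismatches, 13 had 1 and 12 had 2. Those at daf-19 and ift-74 were the 2 full matches, and the others below show how far the matches vary among IFT and BBSome genes. Capitals mark bases that equal the consensus, and the sequences read along the gene's strand.
daf-19 X-box, chrII:10169417-10169430, minus strand: GTTtCCATGGaAAC
ift-74 X-box, chrII:6679970-6679983, plus strand: GTTtCCATGGaAAC
osm-5 X-box, chrX:2984163-2984176, plus strand: GTTaCtATGGcAAC
osm-6 X-box, chrV:11927493-11927506, minus strand: GTTaCCATaGtAAC
bbs-8 X-box, chrV:6765088-6765101, minus strand: GTacCCATGGcAAC
dyf-3 X-box, chrIV:3399198-3399211, minus strand: GTTtCtATGGgAAC
FKH-2 peaks mostly lay elsewhere. Of the 27 matches, 3 were under a pooled peak (11.1%, 3.85 to 28.1), compared with 35 of 255 matches of the other genes (13.7%, upper bound 18.5). These were the X-boxes of osm-12, che-11 and dyf-2, whose upstream windows are shown first below, followed by those of che-2 and daf-19, examples of a pooled peak beside the X-box without covering it, each centred 207 bp from it. Weaker peaks of dyf-6 (rank 24977) and dyf-5 (rank 28150) had centres 154 bp and 161 bp from an X-box and did not cover it either. Each window holds the 250 bases before the transcript start, 5′ to 3′ on the gene's strand, with the X-box match in capitals: osm-12 at chrIII:12202538-12202787 (minus strand), che-11 at chrV:12150708-12150957 (minus), dyf-2 at chrIII:13686446-13686695 (minus), che-2 at chrX:481200-481449 (plus) and daf-19 at chrII:10169346-10169595 (minus).
osm-12 window: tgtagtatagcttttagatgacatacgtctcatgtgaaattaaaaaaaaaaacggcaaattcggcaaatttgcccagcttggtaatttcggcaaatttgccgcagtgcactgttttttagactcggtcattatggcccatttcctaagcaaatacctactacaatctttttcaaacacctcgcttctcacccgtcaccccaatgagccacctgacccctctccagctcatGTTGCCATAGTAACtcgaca
che-11 window: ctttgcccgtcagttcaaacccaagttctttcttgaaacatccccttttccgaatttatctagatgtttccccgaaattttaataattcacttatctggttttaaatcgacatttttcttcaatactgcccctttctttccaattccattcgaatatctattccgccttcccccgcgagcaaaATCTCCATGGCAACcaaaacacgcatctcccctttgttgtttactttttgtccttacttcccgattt
dyf-2 window: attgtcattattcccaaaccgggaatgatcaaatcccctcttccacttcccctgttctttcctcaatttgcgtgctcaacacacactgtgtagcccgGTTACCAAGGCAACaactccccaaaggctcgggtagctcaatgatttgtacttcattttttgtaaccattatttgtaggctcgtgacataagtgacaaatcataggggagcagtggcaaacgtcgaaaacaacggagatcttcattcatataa
che-2 window: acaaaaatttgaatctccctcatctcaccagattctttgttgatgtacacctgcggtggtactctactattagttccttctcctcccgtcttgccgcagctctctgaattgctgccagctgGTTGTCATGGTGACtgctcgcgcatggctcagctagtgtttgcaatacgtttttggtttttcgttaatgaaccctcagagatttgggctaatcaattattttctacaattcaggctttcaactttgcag
daf-19 window: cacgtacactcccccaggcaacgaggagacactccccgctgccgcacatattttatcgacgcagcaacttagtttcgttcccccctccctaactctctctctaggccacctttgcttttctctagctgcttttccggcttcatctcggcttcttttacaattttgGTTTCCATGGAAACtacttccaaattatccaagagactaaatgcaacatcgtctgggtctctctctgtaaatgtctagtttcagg
The pooled peak covered 170 of the 250 bases at osm-12, 171 at che-11 and 133 at dyf-2, but 65 at che-2 and 110 at daf-19. In the replicate lists, 4 matches lay under a peak of replicate 1 and 4 others under a peak of replicate 2, and 0 lay under peaks of both. The nearest pooled peak centre was within 250 bp for 7 matches and over 1000 bp away for 17, with a median of 1237 bp.

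**Figure D1:**
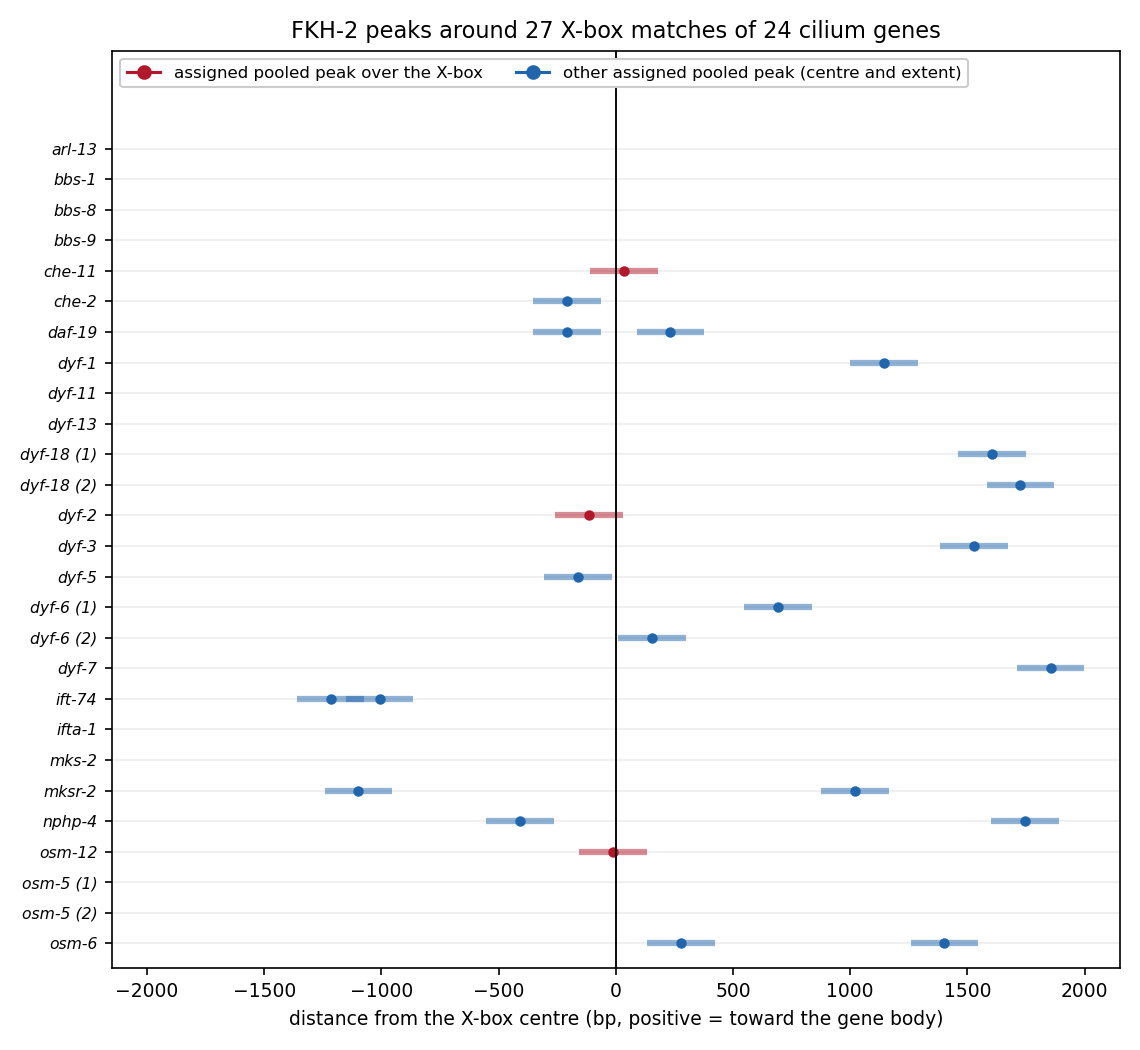
Position of assigned pooled FKH-2 peaks around each of the 27 X-box matches of 24 cilium genes. The horizontal axis is the distance in bp from the X-box centre along the gene's strand, bars are the extents and points the centres of peaks within 2000 bp, and numbers in brackets separate several matches of a gene. Red bars, at che-11, dyf-2 and osm-12, are the 3 peaks that cover the X-box, and 10 of the 27 lines are drawn empty.

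As a group, the cilium genes were reached by FKH-2 peaks about as often as other genes. A peak was assigned to the gene with the nearest protein-coding transcript start within 2000 bp of the peak centre. By this rule 32 of the 47 genes had a pooled peak (68.1%, 53.8 to 79.6), beside 61.2% of the 19926 other protein-coding genes. The best peak overlapped a peak of each replicate by at least 1 bp for 8 genes of the 47 (interval 8.89% to 30.1%), beside 12.7%. It was among the strongest 3000 of the pooled list for 7 genes (14.9%, 7.41 to 27.7), beside 9.74%. A peak of the IDR set was assigned to 1 gene, tmem-231 (2.13%, 0.377 to 11.1), beside 0.708%. Each of these 4 background shares lies inside the interval for the cilium genes, so each share is near the background and is not a result about the cilium genes. The intervals cover counting error over genes only.

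The levels were also close to those of other genes. With unassigned genes placed beyond the last peak, the median best rank was 20768 for the cilium genes (95% interval of the median 12539 to 28150) and 21894.5 for the others. Among genes with a peak, the median score was 6.79 against 6.94 and the median distance from the start 654.5 bp against 641 bp. The cilium genes had a little more sequence nearest to their starts, a median of 3491 bp against 2995 bp, and held 0.288 pooled peaks per kb of it against 0.314. Of the 32 best peaks 15 were upstream of the start and 17 downstream. Among the 12193 best peaks of other genes 5700 were upstream, a similar share. The centres of the 32 were coding sequence in 12 cases, intergenic in 10, intronic in 6, and in a 5′ UTR or a 3′ UTR in 2 each. These features were not counted for other genes. In whole animals, strong binding in few cells and weak binding in many cannot be told apart, and cilia belong to a small part of the larva's cells.

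**Figure D2:**
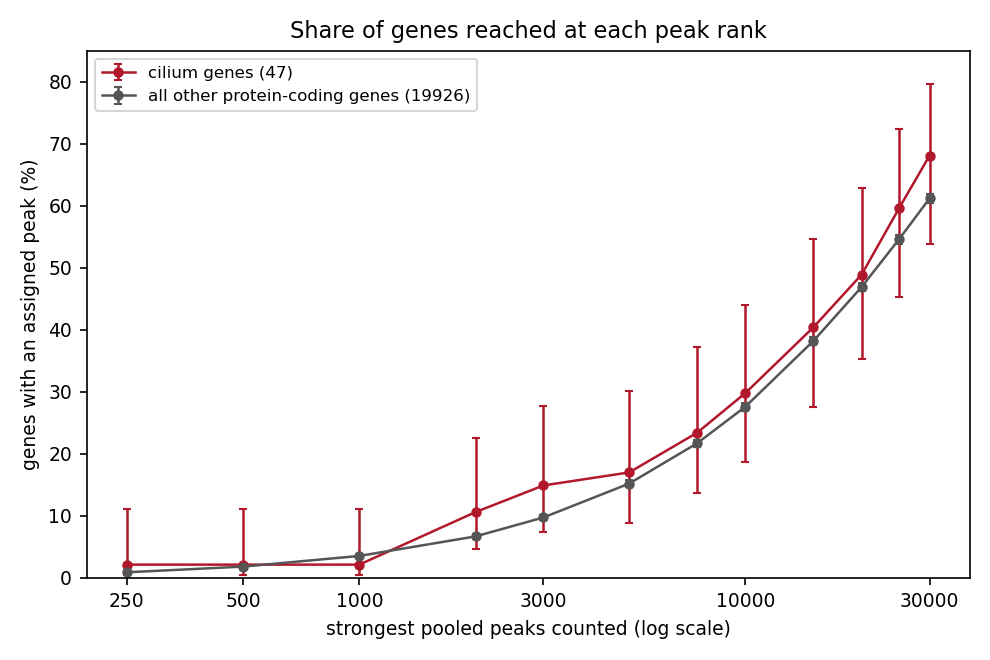
Share of genes with an assigned pooled peak (vertical axis, %) against the number of strongest pooled peaks counted (horizontal axis, log scale), for the 47 cilium genes in red and the 19926 other protein-coding genes in grey, with Wilson 95% intervals. The interval of the cilium genes holds the grey value at every rank drawn, ending at 68.1% and 61.2%.

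In the IFT-B complex, which carries most outward cargo, 9 of 14 genes had an assigned pooled peak and 3 of them had support in both replicates, close to the 61.2% and 12.7% of other genes. The strongest was at osm-1 (WBGene00003883), a large IFT-B subunit, with a peak at chrX:16539627-16539916 centred 902 bp upstream of the start and inside the 3′ UTR of the neighbouring gene pat-9. It ranked 1129 in the pooled list (score 13.4), 10088 in replicate 1 (5.08) and 3026 in replicate 2 (5.70). The replicate peaks covered 215 bp and 53 bp of it, so the replicate with the better rank touched only its edge. A further osm-1 peak, 699 bp upstream at rank 2857, overlapped this one. The same replicate peaks, at ranks 10088 and 3026, overlapped it, so it adds no separate support.

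For the other IFT-B genes the replicates differed more. The peak of che-2 (WBGene00000484) at chrX:480975-481264, 330 bp upstream and beside the X-box shown above, ranked 2009 (11.6) in the pooled list and 2668 (7.94) in replicate 1, and no replicate 2 peak overlapped it. At osm-6 (WBGene00003886) the coding-sequence peak at chrV:11927076-11927365, 225 bp downstream of the start, ranked 8369 (7.74), 29282 (2.67) and 13250 (3.18) in the pooled, replicate 1 and replicate 2 lists. At ift-74 (WBGene00016005) the peak at chrII:6678615-6678904, 1264 bp upstream in coding sequence of H43E16.1, ranked 16851 (5.90), 22819 (3.26) and 4441 (5.08). Of the 3 peaks, che-2's was strong in replicate 1 alone and the others were weak in replicate 1. The peaks of che-13, dyf-3, dyf-6, ift-20 and dyf-1 ranked between 10250 and 25844. The train subunits osm-5, dyf-11, dyf-13 and ift-81 and the small GTPase ifta-2 had no pooled peak within 2000 bp of a start. For osm-5 that held although 2 X-boxes lay 45.5 and 93.5 bp upstream of its start.

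IFT-A and the dynein serve the return transport, and none of their 7 genes had a best peak supported in both replicates, beside 12.7% of other genes. Among IFT-A genes, che-11 (WBGene00000490) had a peak at chrV:12150589-12150878, 27 bp upstream of the start and over its X-box, that ranked 17037 (5.87) in the pooled list and 13545 (3.14) in replicate 2 and was absent from replicate 1. The peak of dyf-2 (WBGene00001118) at chrIII:13686563-13686852, 263 bp upstream, likewise ranked 20768 (5.32) in the pooled list and 7493 (4.21) in replicate 2 alone. Both peaks that cover an IFT-A X-box were thus in the weaker part of the pooled list and came from the same replicate. The dynein heavy chain gene che-3 had a peak at rank 11422 (6.92) with no overlap in either replicate, and the dynein light intermediate chain gene xbx-1 one at 29925 (4.27), the weakest among the 32 best peaks, overlapped in replicate 2 at 9065 (3.86).

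The remaining IFT-A genes, daf-10, ift-43 and ifta-1, had no assigned peak, for different reasons of position. Near daf-10 (WBGene00000906) a peak at chrIV:9147024-9147313, 958 bp upstream of its start, ranked 1005 (13.9) in the pooled list and 695 (11.2) in replicate 1. It lay closer to aly-2, the gene it was assigned to, and was not overlapped in replicate 2. The genes aly-2 and rpb-12 both lie 155 bp from the peak, so the assignment to aly-2 was close to a tie. Near ift-43 (WBGene00016121) 4 pooled peaks lay in reach and all were nearer to another start, since only 703 bp of sequence were nearest to the start of ift-43. The strongest of the 4, at rank 176 (23.2), belongs to mdt-26 by distance and is in the IDR set. It ranked 64 (21.7) in replicate 1 and 17544 (2.66) in replicate 2. For ifta-1 the closest pooled peak was 2326 bp from the start, just beyond the 2000 bp limit.

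In the BBSome, 3 of 6 genes had an assigned peak, beside 61.2% of other genes. The peak of osm-12 (WBGene00003892), a core BBSome subunit, at chrIII:12202418-12202707 was centred 26 bp upstream of the start, and its centre was 12 bp from the X-box centre. It ranked 1689 (12.1) in the pooled list and 12103 (4.69) in replicate 1, with no overlap in replicate 2. It is the only X-box peak of the 3 in the strongest 3000. At bbs-5 (WBGene00010974) the peak at chrIII:10263085-10263374, 1448 bp upstream in coding sequence of inpp-4B, ranked 5684 (8.75), 3428 (7.37) and 22832 (2.16) in the pooled, replicate 1 and replicate 2 lists, so it was much stronger in replicate 1 than in replicate 2 by rank. The peak of bbs-2 ranked 8674 (7.64) and was in neither replicate list. No pooled peak was assigned to bbs-1, bbs-8 or bbs-9. A pooled peak at rank 2893 (10.6) lay 1876 bp from the start of bbs-8 but nearer to T25F10.1, and bbs-9 had peaks in the separate lists of replicate 1, at rank 13306, and of replicate 2, at 2513.

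The strongest peak of any of the 47 genes was at tmem-231 (WBGene00020825), which encodes a membrane protein of the transition zone's MKS module. The peak at chrIV:8428522-8428811 ranked 129 (25.6) in the pooled list, 130 (17.6) in replicate 1 and 7457 (4.22) in replicate 2. It was thus strong in replicate 1 and in the pool, while its overlapping replicate 2 peak ranked far lower. Its centre lay 1677 bp downstream of the nearest tmem-231 start, past the 3′ end of the gene at position 8428578. The gene T26A8.6, annotated as a small nucleolar RNA (snoRNA) on the minus strand at chrIV:8428614-8428739, lies wholly inside the peak and fills 126 of its 290 bp, and the protein-coding gene T26A8.4 ends 146 bp away. When starts of noncoding genes were allowed to compete for peaks, none of the 47 genes had an IDR peak, while 0.512% of the others did. Whether the signal at this peak belongs to tmem-231 or T26A8.6 was not tested. The part of the peak beyond tmem-231, chrIV:8428579-8428811 on the plus strand, is shown with the T26A8.6 gene in capitals.
tmem-231 window: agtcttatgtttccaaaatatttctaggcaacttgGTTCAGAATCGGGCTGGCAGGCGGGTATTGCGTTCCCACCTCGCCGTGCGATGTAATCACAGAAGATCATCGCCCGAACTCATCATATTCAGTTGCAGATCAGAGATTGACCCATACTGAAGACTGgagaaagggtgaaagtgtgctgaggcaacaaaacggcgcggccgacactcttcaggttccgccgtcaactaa

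In the rest of the MKS module, whose proteins form the gate, 4 of 7 genes had an assigned peak, beside 61.2% of other genes. At mksr-1 (WBGene00019364), a relative of mks-1, an intronic peak at chrX:1067025-1067314 ranked 1413 (12.7), 2152 (8.37) and 20038 (2.41) in the pooled, replicate 1 and replicate 2 lists. It lay 1959 bp downstream of the start, the farthest of all best peaks and just inside the 2000 bp limit. The closest peaks just outside were 2318 bp from mks-3 and 2326 bp from ifta-1. At mks-6 (WBGene00010642) the intronic peak 685 bp downstream of the start ranked 14299 (6.33), 21000 (3.46) and 5021 (4.88), and so was weak in replicate 1 and stronger in replicate 2. The peaks of mks-1 and mksr-2 ranked 12539 and 14097, the former in neither replicate and the latter in replicate 1 alone. No pooled peak was assigned to mks-2, mks-3 or the scaffold gene mks-5. In the NPHP module, nphp-1 (WBGene00010898) had a peak at chrII:10652448-10652737, 337 bp upstream in coding sequence of lact-3, at ranks 9485 (7.41), 10562 (4.98) and 12586 (3.28), the most even of the 8 peaks supported in both replicates. The nphp-4 peak ranked 16093 (6.02) and was in neither replicate.

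Among the genes that regulate cilia, arl-3 (WBGene00000188), a small GTPase, had a coding-sequence peak at chrII:14607333-14607622, 1006 bp downstream of the start and within the span of tps-2. It ranked 2820 (10.6) in the pooled list and 2059 (6.28) in replicate 2, with no overlap in replicate 1. No pooled peak was assigned to the other GTPase gene, arl-13, since the 2 pooled peaks in its reach were nearer to another start. The stronger, at rank 20700, was nearer to Y37E3.1. The kinases dyf-18 and dyf-5, which limit cilium length, had weak peaks at ranks 22229 (5.13) and 28150 (4.45).

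All 6 genes with other roles had a pooled peak, beside 61.2% of other genes, and they also had more sequence nearest to their starts, a median of 5887 bp against 2995 bp. None of their best peaks was supported in both replicates, beside 12.7%, but che-12 and daf-19 each had a weaker peak that was. For che-10 (WBGene00018051), which encodes the rootlet protein rootletin, the peak at chrII:4638116-4638405, 80 bp downstream of a start in coding sequence, ranked 1162 (13.3) in the pooled list and 5656 (6.31) in replicate 1 and was not overlapped in replicate 2. The separate list of replicate 2 did hold a che-10 peak at rank 978 (7.47). For che-12 (WBGene00000491), a protein of the cilium with HEAT repeats, the peak at chrV:10307862-10308151 lay 624 bp upstream and ranked 4349 (9.49) in the pooled list and 18999 (3.69) in replicate 1 alone. For the centriole gene hyls-1 (WBGene00015466) the peak at chrV:7237207-7237496 lay 29 bp upstream and ranked 5495 (8.83) in the pooled list and 4357 (6.84) in replicate 1 alone. The peaks of the dendrite-anchoring gene dyf-7 and the tubby gene tub-1 ranked 16837 and 20942.

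The RFX factor gene daf-19 (WBGene00000914), which has 5 annotated starts, held 6 pooled peaks, the most of the 47 genes, over 9741 bp of sequence nearest to its starts. The best, an intronic peak at chrII:10159841-10160130, ranked 6829 (8.28) in the pooled list and 10287 (5.04) in replicate 1, and no replicate 2 peak overlapped it. Of the 6 peaks 1 was overlapped in both replicates, at chrII:10169486-10169775, 285 bp upstream of a start and beside the X-box shown above. It ranked 9531 (7.40) in the pooled list, 13810 in replicate 1 and 2870 in replicate 2. In the lists of the replicates taken alone, the best daf-19 peaks ranked 2697 (7.91) and 933 (7.53), and daf-19 was the only 1 of the 47 genes within the strongest 5000 peaks of both. These were separate sites, since the replicate 1 peak was the intronic one at chrII:10163890-10164179, which no replicate 2 peak overlapped. How many other protein-coding genes were within the strongest 5000 peaks of both was not counted.

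**Figure D3:**
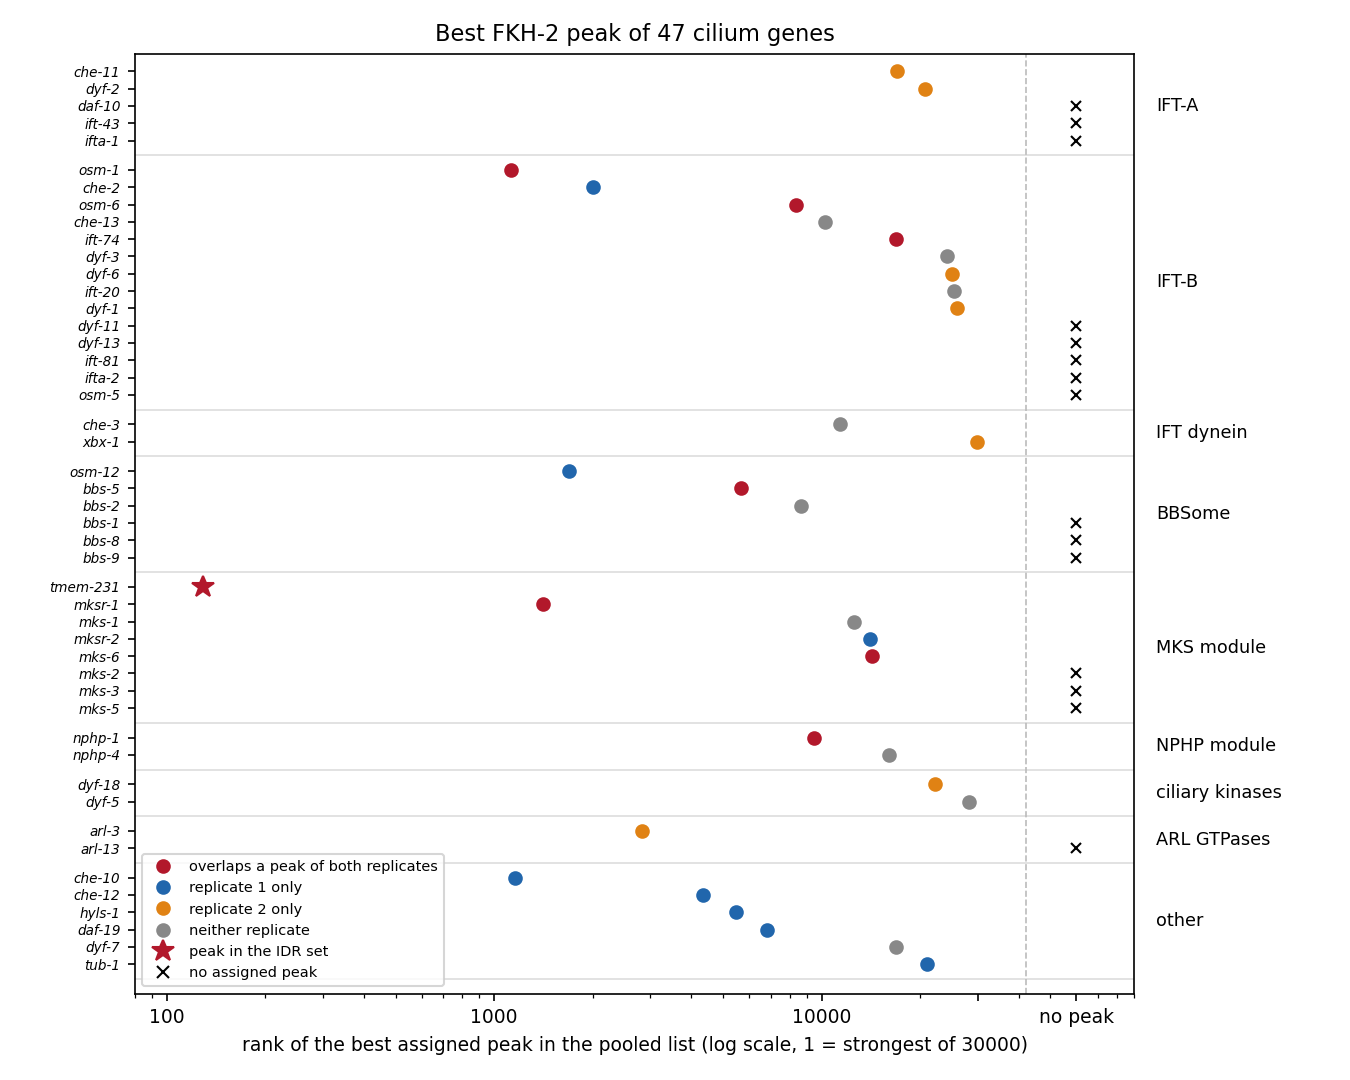
Rank of the best assigned pooled peak of each of the 47 cilium genes (horizontal axis, log scale, 1 the strongest of 30000), by group. Colours give overlap with replicate peaks, the star is the IDR peak at tmem-231, and crosses at the right are the 15 genes with no assigned peak. The 7 genes left of rank 3000 are spread over 5 groups, namely IFT-B, BBSome, MKS module, ARL GTPases and other.

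The replicates supported the cilium peaks only in part. Of the 32 best peaks, 8 were overlapped in both replicates (25.0%), 8 in replicate 1 alone (25.0%), 7 in replicate 2 alone (21.9%) and 9 in neither (28.1%). Among the best peaks of other genes the shares were 20.8%, 40.4%, 22.1% and 16.7%. Over all 47 genes, those with a best peak in neither replicate were 19.1% (10.4 to 32.5), beside 10.2% of other genes, which lies just below that interval. This difference was not tested. The 8 peaks with support in both were those of osm-1, osm-6, ift-74, bbs-5, nphp-1, mks-6, mksr-1 and tmem-231, of which 4 lay upstream and 4 downstream of the start. The better rank was in replicate 1 for 4 of them and in replicate 2 for the other 4. Only 16097 peaks of the replicate 1 list have a q-value under 0.05. The replicate 1 peaks at osm-6, ift-74 and mks-6 ranked lower than that number, at 29282, 22819 and 21000. The overlaps were short, with medians of 126 bp in replicate 1 and 112 bp in replicate 2, against 254 bp and 222 bp for the other genes. With an overlap of at least 50% of the pooled peak required in each replicate, tmem-231 was the only cilium gene left, beside 8.78% of the other genes. Its replicate peaks covered 287 bp and 244 bp.

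When each replicate list was assigned to genes on its own, 25 cilium genes had a peak in replicate 1 (53.2%) and 30 in replicate 2 (63.8%), and 20 had a peak in both (42.6%), beside 60.4%, 54.2% and 36.9% of the other genes. The strongest 3000 peaks of replicate 1 reached 3 of them, tmem-231, che-2 and daf-19. An equal share of the replicate 2 list also reached 3, daf-19, che-10 and arl-3. Only daf-19 was reached by both, through peaks at separate sites. A replicate peak that overlaps a gene's pooled peak is not always assigned to that gene. This was so for the replicate 1 peaks given above for mksr-1 (rank 2152) and hyls-1 (rank 4357). The best replicate 1 peak assigned to mksr-1 ranked 25669, and hyls-1 had none. No peak of any of the 3 lists was assigned to 8 genes, namely dyf-11, dyf-13, ift-43, ifta-1, mks-2, mks-3, arl-13 and daf-10. The counts for the strongest peaks of each replicate and for genes with no peak were not made over other genes. They are therefore not a result about the cilium genes.

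**Figure D4:**
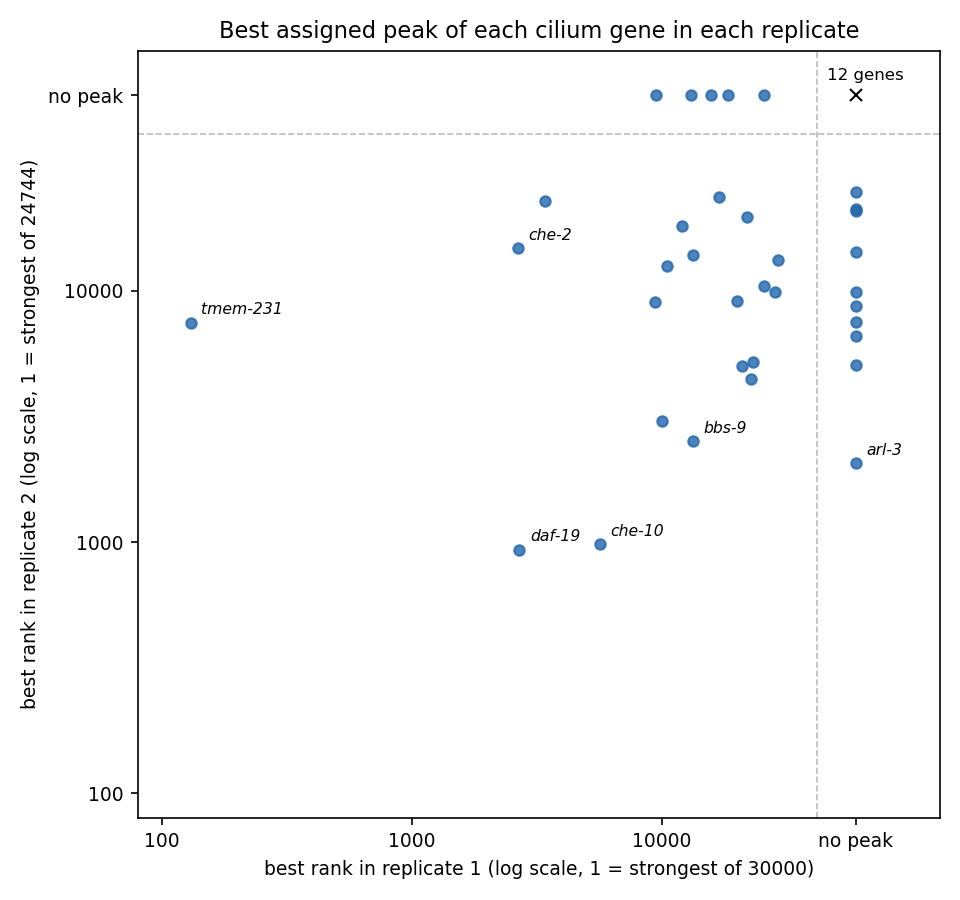
Best rank of each cilium gene in the list of replicate 1 (horizontal axis) and of replicate 2 (vertical axis), each assigned on its own and on a log scale. Genes without an assigned peak sit beyond the dashed lines, 12 of them in both lists, a count not made for other genes. The lower left holds daf-19 and che-10, whereas tmem-231 is far to the left and at rank 7457 on the vertical axis.

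Forkhead factors bind variants of the core RYAAAYA, with R a purine and Y a pyrimidine. On either strand within 50 bp of the centre, it occurred in 5 of the 32 best peaks of cilium genes (15.6%, 6.86 to 31.8), beside 17.7% of the best peaks of the other genes. The 5 peaks were those of che-11, dyf-1, mks-1, tub-1 and hyls-1, none of which was in the strongest 3000. Over the whole peak it occurred in 16 of the 32 peaks against 42.7% of those of other genes, and 41.1% of all pooled peaks of 290 bp held it. The tmem-231 peak held 2 matches, both outside the 50 bp around its centre. The stricter core RTAAACA, which is contained in RYAAAYA, was at the centre of 1 cilium peak (3.12%), that of che-11, against 4.59%. GAGAGA, searched in the same way, was at the centre of 3 (9.38%) against 8.64%. These shares are near the background, and no match in a window says only that these letters are not in it.

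Cilium genes with and without an X-box match by this search were also set side by side. Of the 24 genes with a match, 15 had an assigned peak, 2 had support in both replicates (osm-6 and ift-74) and 2 were in the strongest 3000 (osm-12 and che-2). Of the 23 genes without a match, which may still hold an X-box that the search missed, the numbers were 17, 6 and 5. Among all other protein-coding genes the shares were 61.2%, 12.7% and 9.74%. The numbers are small and the difference was not tested.

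A further list of cilium genes, with 31 of 32 names found in the annotation, was counted in the same way. Of the 31, 16 had an assigned peak (51.6%, 34.8 to 68.0), beside 61.2% of the genes outside the first list. The best peak was supported in both replicates for 8 (25.8%, 13.7 to 43.2), beside 12.7%, which lies just below that interval, and 4 were in the strongest 3000 (12.9%, 5.13 to 28.9), beside 9.74%. None had an IDR peak, beside 0.708%, and by the limit of 3 counts of the total this allows a share of up to 9.68%. The strongest were pdl-1, a lipid-binding carrier of ciliary proteins, at pooled rank 854 (14.5) and xbx-5 at 1217 (13.2). The transition zone gene ccep-290 at 1838 (11.9) and the IFT-A gene ift-139 at 2896 (10.6) followed. All were overlapped in both replicates, with unequal ranks. Replicate 1 and 2 ranks were 1076 and 5447 for pdl-1 and 1693 and 7445 for xbx-5. For ccep-290 they were 3234 and 24682, the latter near the end of its list, and for ift-139 22891 and 899. An X-box match was present at 12 of the 31 (38.7%).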

How the data were processed

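ChIP-seq peak lists of 2 replicates, their pool and an IDR set were used as deposited on ce11. Each list gives a peak score and the −log10 of a q-value, both deposited by the authors. Per the deposited text files, the lists were made from alignments and a control file. The IDR threshold and the aligner and peak caller with their versions are not given in the sources used here, nothing says whether the replicates came from separate cultures, and the ce10 lists were not used here. Chromosome names and lengths matched Ensembl release 115 gene models and the RefSeq WBcel235 sequence.

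Peak scores were ranked within a list, peaks were assigned to the nearest protein-coding start within 2000 bp, and support meant an overlap of at least 1 bp. Results are counts with Wilson 95% intervals (scipy 1.17.1, pandas 2.3.3, numpy 2.4.6, Python 3.11.15), without tests, and a count of 0 carries the limit of 3 counts of the total. The interval of the median rank comes from order statistics. Scripts were tested on simulated data. The cilium genes, groups and further lists were chosen with earlier results of these data known. Genes named are those with an IDR peak assigned or in reach, those supported in both replicates, the 10 best pooled ranks and those with no assigned peak, with the others given by group. Genes of the further list, and those named for a motif, a replicate list or an X-box, were picked with their values in view. The alternatives were distances, competing starts, single replicates, q-values, ranks, overlap and motif settings.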

Additional observations from a re-analysis of the deposited data

How the results depend on the processing

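Over all results, 27 of 50 alternatives stayed within 1.5 times the reported value or its spread. For the count of genes reached 6 of 10 did, and for the count in the strongest 3000 pooled peaks 3 of 8. Genes with an assigned peak numbered 18 with starts within 500 bp, 21 within 1000 bp, 11 with a q-value under 0.05 and 14 with the strongest 10000 peaks, against 32, and 25 to 30 without 1 replicate. Among other genes the shares were 33.5% at 500 bp and 48.5% at 1000 bp. They were 21.2% for a best peak with a q-value under 0.05 and 27.6% for the strongest 10000 peaks. Support in both replicates went from 8 to 3 at 500 bp (6.7% of other genes) and to 1 with 50% overlap (8.78%). It was 1 with the strongest 10000 peaks of each replicate (3.86%) and 0 with the strongest 5000 (1.85%). The strongest 3000 pooled peaks held 3 genes at 500 bp, 4 at 1000 bp and 12 with every gene in reach, against 7, and 3 without either replicate. The IDR count of 1 became 0 at 500 bp (0.401% of other genes) and 0 at 1000 bp (0.552%). It became 0 when noncoding starts compete (0.512%) and 2 with every gene in reach (1.15%). An IDR set needs both replicates, so in its place as many of the strongest peaks of a single list were taken, which gave 0 without replicate 1 and 1 without replicate 2. The median rank was 18122 without replicate 1 and 28416 without replicate 2. The forkhead core was at 10 of 30 best peak centres without replicate 1 and 4 of 25 without replicate 2, against 5 of 32. Of the 32 pooled peaks, 1 held RTAAACA at the centre and 16 held the core over the whole peak. Shares of other genes were not counted for the strongest 3000 under these alternatives or for the core in a single list. Genes with an X-box match numbered 14 with at most 1 mismatch and 33 with at most 3, against 24. X-boxes under a peak numbered 4 in each replicate list, against 3. Where fewer peaks or letters were allowed, the smaller count follows from that limit, and otherwise the cause was not tested. Competing noncoding starts, and single replicates for the median rank, forkhead core and X-boxes under peaks, were chosen after seeing the data. The annotation marks no canonical transcript, so the outermost start was the alternative. Leaving out a replicate gives no value for support in both. No paired analysis was possible because there was 1 group. The unknown depth limits what an absent peak shows.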

Other observations

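The 5 kinesin motor genes of the cilium were outside the 47 genes, and 4 had an assigned FKH-2 peak (Wilson 95% interval 37.6% to 96.4%). Support in both replicates was found for 1 (3.62% to 62.4%). These intervals hold the 61.2% and 12.7% of other protein-coding genes. The supported peak was that of klp-11, a motor subunit of the heterotrimeric kinesin-II, 315 bp downstream of a start at pooled rank 738 (15.1), replicate 1 rank 1886 and replicate 2 rank 9489. For kap-1, the accessory subunit of the same motor and known as a gene through which FKH-2 shapes the AWB cilium, the best peak lay 813 bp upstream at pooled rank 10851 (7.05), with replicate 2 rank 4211 and no overlap in replicate 1. The third subunit gene, klp-20, had no assigned peak. The homodimeric motor osm-3 and the further ciliary motor klp-6 had peaks at ranks 8337 (7.75) and 4844 (9.18), each overlapped in replicate 1 alone. None of the 5 had an X-box match, and with 5 genes a count of 0 allows a share of up to 60.0% by the limit of 3 counts of the total.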
